A study of Rattus norvegicus with 6 samples.

Results

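The mitochondrially encoded subunits of respiratory complexes III, IV and V are described here across 6 RNA libraries from the rat superior colliculus. The genes are Mt-cyb (ENSRNOG00000031766), Mt-co1 (ENSRNOG00000034234), Mt-co2 (ENSRNOG00000030371), Mt-co3 (ENSRNOG00000030700), Mt-atp6 (ENSRNOG00000031979) and Mt-atp8 (ENSRNOG00000033299), 6 of the 26402 Ensembl gene IDs in the deposited FPKM table. FPKM relates the fragments of a gene to its transcript length and to the library total, so levels are compared between genes per unit of length. For Mt-atp8 this comparison is uncertain, because its place among the genes depends on the unit. The members were taken by Ensembl ID, with the symbols supplied beside those IDs, since the deposited tables carry IDs alone. All 6 were above 0 in every library, and all passed the filter of a mean of at least 1 FPKM that left 12351 IDs for testing. The set was chosen by the closed-against-open values of these same libraries, Mt-atp8 being among the IDs called in the authors' own comparison. For these genes that contrast is therefore a description, and no call in it is read as support. An SE beside a fold is that of the fit without batch, which ignores the pairing of libraries by batch. The SE with batch in the fit is given after it. Both are moderated over all tested IDs, so neither is the spread of a gene alone.

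The tissue was the superficial superior colliculus, the midbrain layers that receive retinal axons, taken at postnatal day 20 from rats of the Sprague Dawley strain. In the 3 closed libraries the eyelids had been held shut with glue from postnatal day 14 to 20, and in the 3 open libraries the eyes had been open over those days. The labels name batches A, B and C with 1 library per group in each, so every closed library has an open partner of its batch. The sources used here do not give what a batch shares or how many animals went into a library, so the spread between libraries may be partly technical.

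Mitochondrial DNA encodes a small set of respiratory chain proteins, and the remaining subunits come from the nucleus. Cytochrome b (Mt-cyb) is a catalytic subunit of complex III, which passes electrons from ubiquinol to cytochrome c. Mt-co1, Mt-co2 and Mt-co3 form the core of complex IV, cytochrome c oxidase, which reduces oxygen. Mt-atp6 and Mt-atp8 belong to the membrane part of complex V, the ATP synthase. These genes are read from the same strand as parts of long precursor RNAs, which are cut mostly at the tRNAs lying between genes and then polyadenylated. Mt-atp8 and Mt-atp6 stay joined on 1 mature transcript, on which their reading frames overlap, and Mt-co3 follows Mt-atp6 with no tRNA in between. Cytochrome oxidase staining is a long-used histological measure of sustained neuronal activity in visual areas of the brain.

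All 6 genes ranked among the 10 most abundant IDs in each of the 6 libraries. Together they took 22.4% of summed FPKM in closed A, 19.8% in closed B and 22.8% in closed C, and 19.2%, 18.4% and 23.3% in open A, B and C. The mean share was 21.7% ± 1.61 for the closed group and 20.3% ± 2.62 for the open group (SD, n = 3 each). The groups overlapped: the highest share was in open C and the lowest in open B. Within batches, the closed library had the larger share in A and B and the smaller one in C. In bulk tissue, a different number of cells of a type and a different amount of RNA per cell cannot be told apart, and this holds for every level given here.

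**Figure D1:**
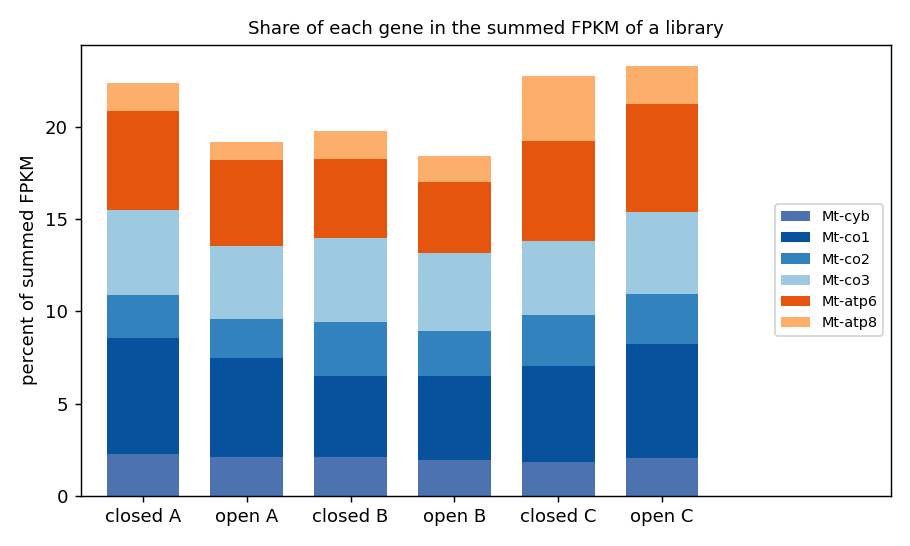
Stacked bars give the percent of summed FPKM taken by each of the 6 genes (colours) in each library (horizontal axis, ordered by batch). The whole bar lies between 18.4% in open B and 23.3% in open C, and the Mt-atp8 segment is tallest in closed C.

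The complexes held different parts of this sum. The 3 complex IV genes made up 52.7% to 60.9% of the summed FPKM of the 6 genes, the 2 complex V genes 28.5% to 39.4%, and Mt-cyb 7.92% to 10.9%. Closed C held the lowest complex IV part, the lowest Mt-cyb part and the highest complex V part. Mt-atp8 alone was 15.4% of the 6-gene sum in closed C, against 5.22% to 8.74% in the other 5 libraries. Without Mt-atp8, the summed FPKM of the remaining 5 genes was lowest in closed C, at 64135 FPKM, and highest in closed A, at 83224 FPKM.

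By mean FPKM over the 6 libraries the order was Mt-co1 (19725), Mt-atp6 (18118), Mt-co3 (15956), Mt-co2 (9449), Mt-cyb (7591) and Mt-atp8 (6670). The upper 3 were close together. Mt-co1 exceeded Mt-atp6 in 5 of 6 libraries, with a ratio of 0.955 to 1.18, and Mt-atp6 exceeded Mt-co3 in 4 of 6, with a ratio of 0.903 to 1.37. The step from Mt-co3 to Mt-co2 was present in all 6 libraries, at 1.42-fold to 1.98-fold. Mt-co2 was above Mt-cyb in all 6 libraries, but in open A by only 1.01-fold. Mt-cyb was above Mt-atp8 in 5 of 6 libraries and was 0.513 of it in closed C.

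Mt-cyb, the gene of complex III, had its batches in the same order with closed and open eyes in FPKM as deposited. Its level was 9021, 8068 and 6005 FPKM in closed A, B and C, and 8139, 7484 and 6829 FPKM in open A, B and C. In both groups batch A was highest and batch C lowest, and the range of the closed libraries enclosed that of the open ones. The group means were 7698 ± 1542 FPKM for closed and 7484 ± 655 FPKM for open eyes (SD, n = 3 each). Relative to its open partner, the closed library was 10.8% higher in A and 7.81% higher in B, while the difference in batch C was -12.1%.

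Mt-co1 carries the oxygen-reducing site of cytochrome c oxidase and was the most abundant ID of the whole table in 4 of 6 libraries. It stood at 25065 FPKM in closed A, 17153 in closed B and 17344 in closed C, and at 20979 in open A, 17453 in open B and 20356 in open C. Closed A was above the other 5 libraries, and the remaining 2 closed libraries were below all open ones. The group means were 19854 ± 4513 and 19596 ± 1882 FPKM (SD, n = 3 each). The limma log2 fold of closed over open was 0.00023 (SE 0.21, and 0.11 with batch in the fit). The near-zero value averaged batch differences of both signs, 0.26 in A, -0.03 in B and -0.23 in C on the log2(FPKM + 0.5) scale.

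Mt-co2 holds the copper centre that takes electrons from cytochrome c, and it was the only complex IV gene higher in closed than in open eyes in all 3 batches as deposited. Closed libraries held 9269, 11352 and 9339 FPKM in A, B and C, and open libraries 8253, 9505 and 8973 FPKM. Each closed library exceeded its partner, by 12.3% in A, 19.4% in B and 4.07% in C, yet the groups overlapped, because open B was above closed A and closed C. The means were 9987 ± 1183 and 8910 ± 629 FPKM (SD, n = 3 each). The limma log2 fold was 0.16 (SE 0.18, and 0.086 with batch in the fit), and it turned to -0.07 with quantile scaling. Mt-co2 was also the steadiest of the 6, with a coefficient of variation over all libraries of 10.9%.

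Mt-co3, a further core subunit without redox centres, had closed-minus-open differences of the same sign as Mt-cyb in every batch. It measured 18390, 17559 and 13288 FPKM in closed A, B and C, and 15433, 16335 and 14733 FPKM in open A, B and C. Closed A and B were above all open libraries and closed C was below all of them. The means were 16412 ± 2737 and 15500 ± 803 FPKM (SD, n = 3 each). The closed library was 19.2% higher in A and 7.49% higher in B, while batch C showed -9.81%.

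Mt-atp6 forms, with nuclear subunits, the proton path of the ATP synthase. Its level was 21479, 16508 and 18159 FPKM in closed A, B and C, and 18259, 14755 and 19549 FPKM in open A, B and C. Batch B was lowest in both groups, and the groups overlapped. The means were 18715 ± 2532 and 17521 ± 2481 FPKM (SD, n = 3 each). The closed library was 17.6% higher in A and 11.9% higher in B, and the difference in C was -7.11%.

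Mt-atp8, a short membrane protein of the ATP synthase, departed from the other 5 in size and spread. Closed C stood at 11717 FPKM, while closed A and B were at 6095 and 6023 FPKM. Open A was the lowest library, at 3913 FPKM, followed by open B at 5526 and open C at 6747 FPKM. Each closed library exceeded its partner, by 55.8% in batch A, 8.99% in batch B and 73.7% in batch C. The groups still overlapped, since open C was above closed A and closed B. The highest library was 2.99 times the lowest, against 1.376 to 1.502 times for the other 5 genes. The residual SD of Mt-atp8 in the fit without batch was 0.48 on the log2 scale, above that of 96.4% of tested IDs, while the other 5 genes had 0.14 to 0.24, above that of 29% to 67.8% of tested IDs. The limma log2 fold of 0.52 (SE 0.32, and 0.13 with batch in the fit) became 0.20 without closed C and 0.31 without open A.

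**Figure D2:**
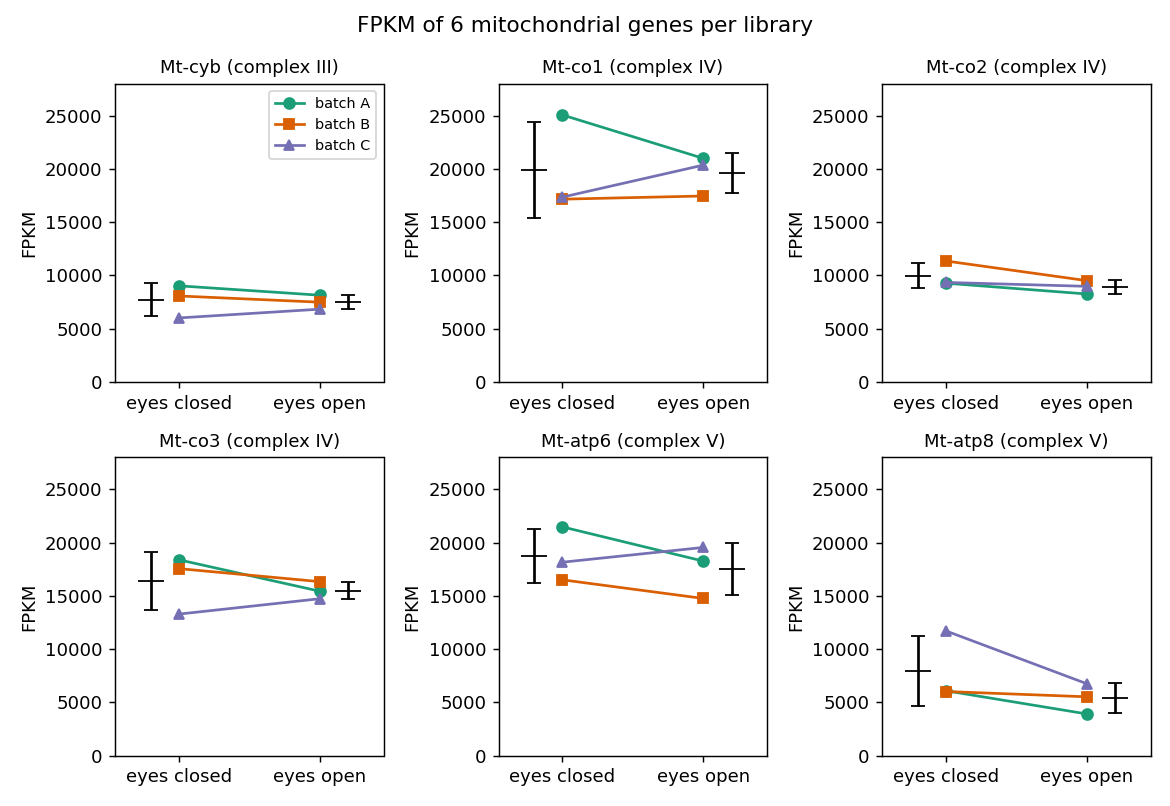
Each panel plots 1 gene, with FPKM on the vertical axis and eye condition on the horizontal axis. Coloured points are single libraries, lines join the 2 libraries of a batch, and black bars are group means with SD (n = 3). Lines of different batches cross for Mt-co3, Mt-atp6 and Mt-atp8, and closed C of Mt-atp8 stands at 11717 FPKM.

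Counted over the 6 genes, the direction of the closed-minus-open difference changed with the batch. In batch A all 6 were higher in closed eyes as deposited, in batch B 5 of 6, and in batch C only Mt-co2 and Mt-atp8. The median log2 difference of the 6 genes was 0.24 in batch A, 0.12 in batch B and -0.13 in batch C. Over all 12351 tested IDs it was -0.06, -0.05 and 0.02 in the same batches, and 33.1%, 35% and 55.7% of them were higher in closed eyes. The 6 genes and the whole table thus leaned to opposite sides in each batch, but these sides are not independent. FPKM is relative to the fragment total of a library. The 6 genes held 18.4% to 23.3% of summed FPKM, but 6.85% of the summed counts of the authors' deposited table. More fragments from them leave a smaller part of that total to the other IDs, by an amount not measured here. The opposite lean is therefore not read as a finding. For the same reason the libraries were also set to the same median of the tested IDs. The median level of tested IDs was 8.97, 8.96 and 8.03 FPKM in closed A, B and C, and 9.39, 9.36 and 7.88 FPKM in open A, B and C. After that scaling the signs of all 6 genes stayed as they were in A and in C. In B the difference of Mt-co1 turned from -0.03 to 0.04, so that Mt-co1 also counted 2 of 3 batches, and upper-quartile scaling gave the same signs as the median. Quantile scaling, which keeps only ranks, gave other signs: all 6 genes held the same rank in closed and open A and so differed by 0 there, and Mt-co2 was lower in closed C, at -0.22.

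**Figure D3:**
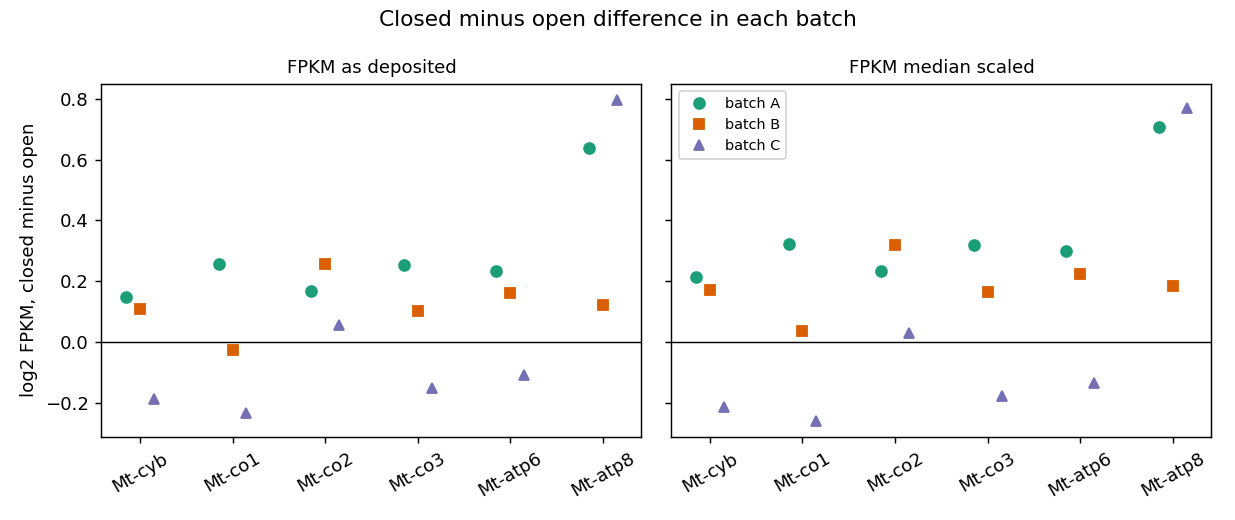
The vertical axis is the log2 FPKM of the closed library minus that of the open library of its batch, for each gene (horizontal axis) and batch (marker), as deposited on the left and after setting libraries to the same median on the right. Batch C points lie below 0 for Mt-cyb, Mt-co1, Mt-co3 and Mt-atp6 in both panels, and Mt-atp8 reaches 0.80 in batch C as deposited.

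In FPKM as deposited, Mt-co2 and Mt-atp8 were higher in closed eyes in all 3 batches, which was so for 8.4% of tested IDs, and none of the 6 genes was lower in all 3, where 19.5% of tested IDs were. None of the 6 had groups that did not overlap, against 3.02% of tested IDs. Across all tested IDs, limma called 0% between closed and open eyes without batch (0 of 12351 at an adjusted p under 0.05, with 67 at an unadjusted p under 0.05). With batch as a replicate block, limma called 0.0081% (1 ID), with 780 at an unadjusted p under 0.05. The fit without batch leaves the differences between batches in its error, so its counts are not read as a lack of difference. These figures describe the whole table. The 6 genes were selected on this contrast, so their own p-values in it are void as tests and are not used. The limma log2 folds of the 6 genes had a median of 0.08, against -0.03 over all tested IDs. These medians are not independent either, since FPKM is relative to the library total.

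In the authors' deposited table, Mt-atp8 was the 1 gene of the 6 called at an adjusted p under 0.05 (0.0344% of IDs with a p-value were called), with a log2 fold of 0.53 for closed over open and an adjusted p of 1.17e-08. Its unadjusted p was the second smallest of that table's 20347. The authors' deposited table gave the other 5 log2 folds of 0.24 for Mt-co2, 0.17 for Mt-co3, 0.16 for Mt-atp6, 0.11 for Mt-cyb and 0.06 for Mt-co1, all toward closed eyes. The unadjusted p in the authors' deposited table was 0.000551 for Mt-co2, 0.0225 for Mt-co3 and 0.0381 for Mt-atp6, and the adjusted p of Mt-co2 was 0.568. With Mt-atp8, 4 of the 6 genes were thus at an unadjusted p under 0.05 and higher in closed eyes, as were 1.58% of IDs in the authors' deposited table. For all 6 the deposited count-based fold was larger than the FPKM fold, by the smallest margin for Mt-atp8 (0.53 against 0.52). The median fold over all tested IDs was also higher in the authors' deposited table, at 0.0015 against -0.03 in FPKM. Both tables were made from the same libraries, and the contrast is the one on which the genes were chosen, so nothing is read from these counts.

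The difference between batches does not depend on the closed-open contrast, because each batch holds 1 library of each group, and it was tested. With eye condition in the fit, limma's F test called Mt-atp8 (adjusted p = 0.00816) and Mt-cyb (adjusted p = 0.0381) as different between batches, so 2 of 6, where 49.7% of tested IDs were called. Mt-atp8 averaged 5004 FPKM in batch A, 5774 in B and 9232 in C. Mt-cyb averaged 8580, 7776 and 6417 FPKM in A, B and C, the opposite order. For Mt-co1 the batch means were 23022, 17303 and 18850 FPKM and the adjusted p from limma's F test was 0.0757. The adjusted p of the remaining 3 was 0.0867 for Mt-atp6, 0.146 for Mt-co3 and 0.154 for Mt-co2 in the same test. With libraries set to the same median, limma's F test called 3650 of 12351 tested IDs, against 6138 as deposited. The call of Mt-cyb ended there (adjusted p = 0.384 in limma) and that of Mt-atp8 stood (0.0105). The call of Mt-atp8 ended without closed C or without open C, with adjusted p of 0.103 and 0.0561 in limma. The call of Mt-cyb also ended with any 1 library left out, at an adjusted p of 0.0575 to 0.185 in limma.

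In FPKM as deposited, batches kept the same order in closed and open eyes for 3 of the 6 genes, near the 50.4% of all tested IDs. From highest to lowest, Mt-cyb ran A, B, C in both groups, Mt-co1 A, C, B, and Mt-co2 B, C, A. The 3 complex IV genes therefore did not share an order. With libraries set to the same median, the order no longer matched between groups for Mt-cyb, Mt-co1 or Mt-co2. In open eyes it then ran A, C, B for Mt-cyb, C, A, B for Mt-co1 and C, B, A for Mt-co2. As deposited, batch A had the highest Mt-co1 and the lowest Mt-co2 in both groups. The ratio of Mt-co2 to Mt-co1 was 0.370 and 0.393 in closed and open A, 0.662 and 0.545 in batch B, and 0.538 and 0.441 in batch C.

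Mt-atp6 and Mt-co3 lie next to each other in the mitochondrial genome, and their FPKM ratio was 1.17 and 1.18 in closed and open A, 0.940 and 0.903 in batch B, and 1.37 and 1.33 in batch C. The ratio differed by batch and hardly by eye condition: closed over open, it was 0.987, 1.04 and 1.03 in A, B and C. The ratio of Mt-cyb to Mt-co3 was narrower still over the 6 libraries, from 0.452 to 0.527.

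The ratio of Mt-atp8 to Mt-atp6, which share a transcript, varied more over the libraries than that of Mt-atp6 to Mt-co3. Mt-atp8 over Mt-atp6 was 0.284, 0.365 and 0.645 in closed A, B and C, and 0.214, 0.375 and 0.345 in open A, B and C. The highest ratio, in closed C, was 3.01 times the lowest, in open A. This spread was not particular to the pair. For Mt-atp8 over Mt-co2, Mt-co3, Mt-co1 and Mt-cyb, the highest was 2.65, 3.48, 3.62 and 4.06 times the lowest. Within batches, the closed ratio of Mt-atp8 to Mt-atp6 was 1.32 times the open one in A and 1.87 times in C, but 0.974 times in B. The group means were 0.431 ± 0.19 and 0.311 ± 0.0853 (SD, n = 3 each), and the groups overlapped. The mean log2 difference of 0.42 had an SD of 0.47 over the 3 batches, and it was 0.09 without closed C and 0.17 without open A. In batch B the closed library was 11.9% higher for Mt-atp6 and 8.99% higher for Mt-atp8, whereas in batch C the differences were -7.11% and 73.7%.

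**Figure D4:**
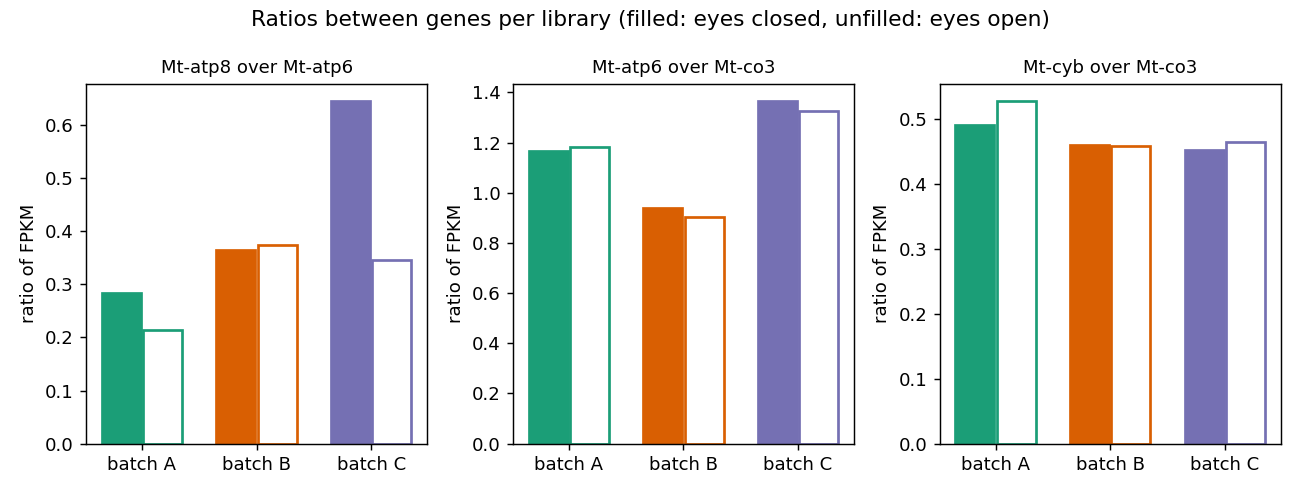
Bars give the ratio of FPKM of 2 genes in each library (filled for closed, unfilled for open eyes), by batch on the horizontal axis. The Mt-atp6 to Mt-co3 ratio is nearly equal within a batch and runs from 0.903 to 1.37 between batches, while the Mt-atp8 to Mt-atp6 ratio reaches 0.645 in closed C against 0.345 in open C.

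The gap between Mt-atp8 and Mt-atp6 depended on the unit. By mean FPKM, Mt-atp6 was 2.72 times Mt-atp8. By the mean normalized count of the authors' deposited table, which is not scaled by length, Mt-atp6 had 243643 and Mt-atp8 had 12538, a 19.4-fold gap. Mt-atp8 ranked 7th of all IDs by mean FPKM and 142nd by count, whereas Mt-co1, Mt-atp6, Mt-co3, Mt-cyb and Mt-co2 ranked 1st, 2nd, 3rd, 4th and 7th by count. All 6 together held 6.85% of the summed counts of the authors' deposited table but 20.9% of summed mean FPKM.

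Counts per unit of FPKM, which grow with the transcript length used in the scaling, were 26.5 for Mt-co1, 24.0 for Mt-cyb, 13.4 for Mt-atp6, 13.4 for Mt-co2, 12.6 for Mt-co3 and 1.88 for Mt-atp8. The median tested ID had 63.9 counts per FPKM, with quartiles of 39.9 and 101. Only 0.373% of tested IDs with counts lay below Mt-atp8. On average, 1 count thus stood for 7.15 times as much FPKM in Mt-atp8 as in Mt-atp6. The reading frames overlap, and nuclear copies of mitochondrial DNA resemble these genes. How reads that fit both genes or a nuclear copy were assigned was not stated in the sources used here, so the split of reads between Mt-atp8 and Mt-atp6 is uncertain.

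**Figure D5:**
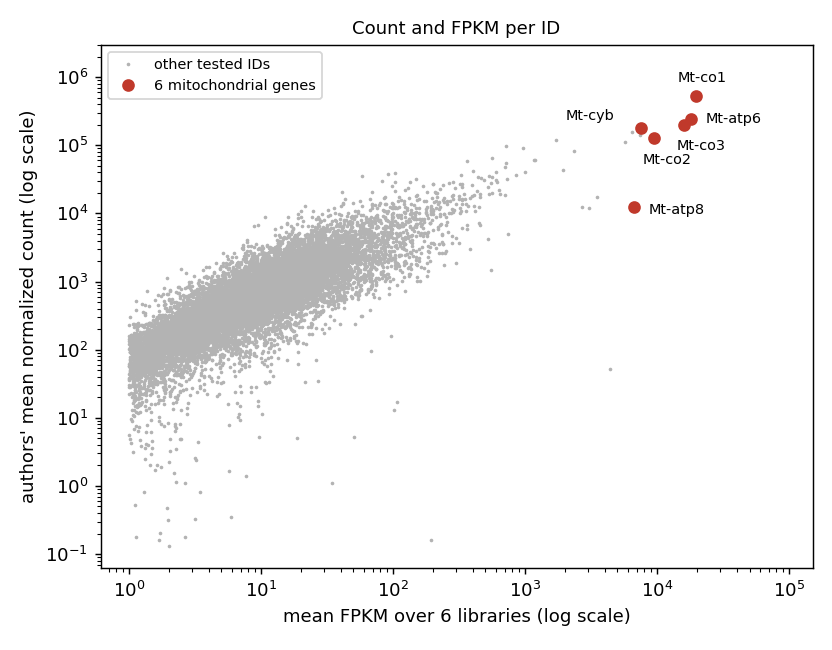
Each grey point is 1 tested ID, with mean FPKM over 6 libraries on the horizontal and the authors' mean normalized count on the vertical axis, both log scales. The 6 genes are red: 5 sit at the top right, and Mt-atp8 lies below them at 12538 counts for 6670 FPKM.

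IDs were sought whose levels over the 6 libraries followed the mean profile of the 6 genes most closely. Pearson correlation was taken with the mean of the 6 centred log2 profiles. This mean was above 0 in every closed library and below 0 in every open one. It thus carries the contrast on which the genes were chosen. In closed C the mean was only 0.02. There Mt-atp8 stood at 0.89 and Mt-atp6 at 0.01 on the centred log2 scale, while Mt-cyb, Mt-co1, Mt-co2 and Mt-co3 were below 0. Of 12345 other IDs, 18 had a correlation of at least 0.9 and 32 of -0.9 or less. ENSRNOG00000019091 was the most alike (r = 0.98), at 11.9, 10.7 and 10.8 FPKM in closed A, B and C and 9.36, 9.93 and 10.4 FPKM in open A, B and C. ENSRNOG00000033148 followed (r = 0.967), at 1.99 to 2.81 FPKM. The least alike were ENSRNOG00000017523 (r = -0.986), at 1.33 to 1.77 FPKM, and ENSRNOG00000047302 (r = -0.973), at 0.689 to 1.43 FPKM. These values describe 6 libraries that share batches, and the IDs were picked as the extremes of many, so they carry no test. Between pairs of the 6 genes the correlation ran from -0.747 (Mt-cyb with Mt-atp8) to 0.917 (Mt-cyb with Mt-co3), so the mean profile does not stand for each gene.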

How the data were processed

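Per the labels' protocols, polyadenylated RNA was read after Qiazol extraction and column cleanup. The submitters' processing notes list Cufflinks 2.1.1, DESeq2 1.4.1, featureCounts 1.4.4 and STAR, with build rn5, but not their roles or the annotation. FPKM was deposited for 26402 IDs and 6 libraries, and a table of their DESeq2 comparison, per the file headers. That deposited table holds a signal per ID, read here from its scale as the mean normalized count, a log2 fold, a p-value and an adjusted p-value. Its log2 fold is open over closed, since its sign was opposite to the FPKM fold in 74% of 11147 IDs with at least 100 counts, and it was turned here. Depth per library is unknown.

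limma 3.58.1 in R 4.3.3 was run on log2(FPKM + 0.5) after leaving out IDs whose mean over 6 libraries was under 1 FPKM, with trend and robust moderation, two-sided p-values and Benjamini-Hochberg adjustment over all 12351 IDs at 0.05. Folds are on that scale. Batches were compared by F test with eye condition in the fit. The scripts were tested on simulated data. Batch letters are shared labels and pair the libraries: deviations from group means correlated at 0.361 to 0.525 within and -0.375 to -0.0508 between batches. Deviations from a group mean sum to 0 over the batches. The between-batch range thus depends on the within-batch one and adds no separate evidence. Alternatives were other pseudocounts (0.1, 1), filters (mean above 0, at least 5 FPKM), scalings, plain moderation, the replicate block, and leaving out each library or batch.

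The genes and lists were chosen with earlier results of these data known. The rule for named genes took all 6 genes and the 2 most and 2 least alike IDs. The tables used carry no symbols, so lists of other mitochondrial genes, nuclear subunits, mitochondrial RNA handling and cell type markers were not analysed here, and the tissue was not checked against markers. No sequence or coordinate is printed.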

Additional observations from a re-analysis of the deposited data

How the results depend on the processing

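Between closed and open eyes, limma called 0 IDs and with the paired fit, batch as a replicate block, 1; the call count was 0 to 3 with a single library removed, 3 without batch A, 5 without batch B and 3 without batch C. For the 6 genes, selected on this contrast, the folds are given as values with no test. Other pseudocounts, other filters, plain moderation and the replicate block left each of these folds the same or nearly so. Only the scalings and the removal of libraries or batches could turn a sign. The fold of Mt-atp8 kept its sign in all 18 alternatives, the fixed ones included, from 0.20 (without closed C) to 0.72 (without batch B). Mt-co2 kept its sign in 17 and turned to -0.07 with quantile scaling. The sign of Mt-co3 and Mt-atp6 held in 16, of Mt-co1 in 14 and of Mt-cyb in 12, with values from -0.18 to 0.21 over these 4. The number of IDs that differ between batches was 6138, and became 3462, 3730 and 3650 with quantile, upper-quartile and median scaling and 1658 (without open C) to 4875 (without open B) when 1 library was left out; a smaller fit has less power, and the cause was not tested further. Of 14 alternatives, Mt-atp8 was called between batches in 12 and Mt-cyb in 4. The authors' 7 calls became 4 under the filter of at least 1 FPKM, which 3 of them do not pass. The Mt-atp8 to Mt-atp6 difference stayed above 0 in all 10 alternatives (log2 0.09 to 0.68) and that of the summed share in all 11 (log2 0.03 to 0.20). These are averages over overlapping sets of libraries, on the contrast used for selection, and are values with no test. Single batches went both ways. In A, B and C the log2 difference was 0.40, -0.04 and 0.90 for the ratio, and 0.22, 0.10 and -0.03 for the share. Adding the pseudocount hardly changed the ratio, and the filter of at least 1 FPKM hardly changed the share. No interval for counting error is given, since depth is unknown.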
